A study of Mus musculus with 16 samples.

Results

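The p53 pathway and its target genes were followed in a mouse lung tumour cell line with and without CRISPR disruption of *Eif4a2*, which encodes an mRNA helicase of the translation machinery. The genes were taken from a list of 35 symbols, 6 for p53 and its regulators and 29 for targets, and each symbol was found under 1 gene ID among the 20622 genes in the files. Of these 35 members, 33 had enough counts to be tested both in ribosome-protected fragments (RPFs, the stretches of mRNA shielded by ribosomes) and in cytoplasmic total RNA, and *Fas* and *Cd80* did not.

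p53 is a transcription factor that is kept scarce in unstressed cells by the ubiquitin ligase MDM2 and accumulates after DNA damage, oncogene activity or other stress. It binds response elements near its target genes and raises transcription of inhibitors of the cell cycle, effectors of apoptosis, repair enzymes and its own inhibitors, MDM2 among them, which closes a feedback loop. In lung tumours, p53 is best known as a barrier to progression, and the arrest it imposes is part of the senescence that oncogenes evoke.

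KM cells came from lung tumours of 1 male mouse at clinical endpoint, with *MYC* expressed from both *Rosa26* alleles (LSL-MYC), recombined by adenoviral CRE under the SPC promoter of alveolar type II cells. They were transduced with lentiviral Cas9 and either a non-targeting guide (KM_NTC) or a guide against the *Eif4a2* coding region (KM_4A2cr) and selected with puromycin. KM_4A2cr was a pool of 4 clones without detectable eIF4A2 protein, so that traits of the chosen clones cannot be told apart from the loss of the gene. Cells were otherwise untreated, and each line gave 4 replicates, which were independent experiments on different days, with RPFs and total RNA from the same lysate. Replicate n of KM_NTC and replicate n of KM_4A2cr form pair n. The comparison asked which p53 targets differed between the lines in every pair and which in pair 4 only.

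Libraries held 4512403 to 9621848 RPF counts and 5350919 to 9312622 total RNA counts, and within each line and kind of library the lowest total was in replicate 4. The libraries of replicate 4 stood apart in both lines: RPFs of the targeted gene *Eif4a2* were 389 CPM (counts scaled to a common library size with TMM) in KM_NTC and 346 CPM in KM_4A2cr there, against 97.7 to 122 CPM and 51.0 to 88.4 CPM in replicates 1 to 3. *Eif4a2* RPFs were lower in KM_4A2cr in 4 of 4 pairs (log2 fold change -0.49 ± 0.15 SE, with edgeR adjusted p = 0.0941), while its total RNA differed by -0.18 (adjusted p = 0.504 by edgeR). Epithelial markers were abundant in total RNA (*Epcam* at a median of 1634 TPM, a level scaled for transcript length), but most alveolar type II markers were not: *Sftpc* and *Sftpb* were listed at 0 in all 8 libraries and *Nkx2-1* reached 0.12 TPM at most. *Abca3*, another marker of these cells, held 27.6 to 47.6 TPM, and *Lamp3* 0.52 to 1.63 TPM. Summed fibroblast markers, 8 in all, held 2.24 to 4.66 TPM in KM_NTC and 2.56 to 4.58 TPM in KM_4A2cr, with *Col3a1* and *Dcn* at 0. The 8 immune and endothelial markers summed to 33.8 to 221 TPM in KM_NTC and 38.1 to 156 TPM in KM_4A2cr, nearly all of it *Cd68*, with *Adgre1*, *Cd3e* and *Lyz2* at 0. Both highest sums were in replicate 4, and their part in the pair 4 differences was not tested.

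Sequences like the p53 response element, which consists of 2 decamers bound by a p53 tetramer, are printed for the members whose promoter windows held them, since p53 binds its direct targets through such elements. RefSeq promoter windows (GRCm38.p6, 250 bases before to 50 after the start site) were found for 27 members (those of *Zmat3*, *Pmaip1*, *Tnfrsf10b*, *Perp*, *Trp53inp1*, *Xpc*, *Ddb2* and *Rrm2b* were not), and the p53 response element consensus was searched with its 2 decamers adjoining and the fixed C and G of each core matched; its letters read the same on both strands. With up to 3 mismatches over the 20 bases, 7 of 27 members (25.9%) held a match, against 1.63% of all genes with a window. At up to 2 mismatches the share was 7.41% of members and 0.392% of genes. At 1 mismatch *Ccng1* was the only member (3.7%, against 0.0814% of genes). The members were listed as p53 targets or regulators, and the mismatch limit was chosen with earlier results known. These shares are therefore a description and not a test. Each line gives the element on the gene's strand, 5′ to 3′, with 5 flanking bases on either side and the 2 core tetramers in capitals.
Ccng1: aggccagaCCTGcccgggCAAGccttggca
Cd80: gctcagaaCAGGcctggaCAAGtcacctcc
Aen: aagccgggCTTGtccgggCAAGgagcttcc
Bbc3: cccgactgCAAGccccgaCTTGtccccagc
Sesn1: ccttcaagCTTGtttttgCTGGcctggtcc
Tigar: gcggcggtCTAGctctggCAAGactccagg
Trp53: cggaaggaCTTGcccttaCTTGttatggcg

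The *Ccng1* sequence lies at chr11:40755457-40755486, minus strand, and its element begins 195 bases before the start site with 1 mismatch. *Cd80* carries its sequence at chr16:38458817-38458846, plus strand, with 2 mismatches. The other 5 have 3 mismatches each: *Aen* at chr7:78895932-78895961, plus strand; *Bbc3* at chr7:16309481-16309510, plus strand; *Sesn1* at chr10:41887261-41887290, plus strand; *Tigar* at chr6:127109741-127109770, minus strand; and *Trp53* at chr11:69580279-69580308, plus strand. A match is a description of the letters and not a bound site, and elements outside these windows were not searched. In RPFs the 7 genes did not share a pattern: *Ccng1* and *Sesn1* were higher in KM_4A2cr in pair 4 only, *Aen* and *Bbc3* were higher by more than 1 log2 unit in pair 4 with mixed signs elsewhere, *Trp53* and *Tigar* were lower in all 4 pairs, and *Cd80* was too scarce to test.

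Transcripts of the members spanned a wide range of abundance in KM_NTC total RNA. *Perp*, a desmosomal membrane protein that p53 induces in apoptosis, was the most abundant at 705 ± 179 TPM (SD, n = 4). *Ccng1*, *Tnfrsf10b*, *Mdm2* and *Plk2* came next at 453 ± 130.3, 241 ± 59.8, 174 ± 26.4 and 159 ± 37.8 TPM (SD, n = 4). *Mdm2* and *Plk2* differed by less than either SD, while *Perp* and *Ccng1* differed by more than both. *Trp53* itself stood at 75.3 ± 34.9 TPM. *Bbc3*, *Sesn1*, *Fas* and *Cd80* were the scarcest members, at 2.16, 2.19, 1.00 and 0.580 TPM.

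Most members were higher in KM_4A2cr in pair 4, and the other pairs showed no such lean. In pair 4, 30 of 33 tested members had more RPFs in KM_4A2cr, with a median log2 difference of 0.86, against 48.7% of all tested genes and a median of -0.018. The counts were 9, 14 and 14 of 33 in pairs 1, 2 and 3, with medians of -0.23, -0.11 and -0.25. Of all tested genes 45.1%, 51.8% and 50.1% were higher in these pairs. Total RNA gave 30 of 33 in pair 4 with a median of 0.75, where 51.1% of all genes were higher. It gave 15, 20 and 14 of 33 in pairs 1 to 3, with medians of -0.069, 0.084 and -0.015. There 46.7%, 52.8% and 50.4% of all genes were higher. RPFs and RNA were measured in bulk lysates, so that more RNA per cell and a larger share of cells with that RNA cannot be told apart. The values are relative to the library total. By the 95% counting interval of the ratio (Clopper-Pearson, counting error only), 26 of 33 members were higher in RPF pair 4 and 1 was lower, against 21.6% and 20.6% of all genes. In pairs 1, 2 and 3 by the same interval 6, 7 and 4 of 33 were higher, against 24.0%, 24.9% and 23.7% of all genes, and 9, 9 and 13 lower, against 26.4%, 18.9% and 22.4%.

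**Figure D1:**
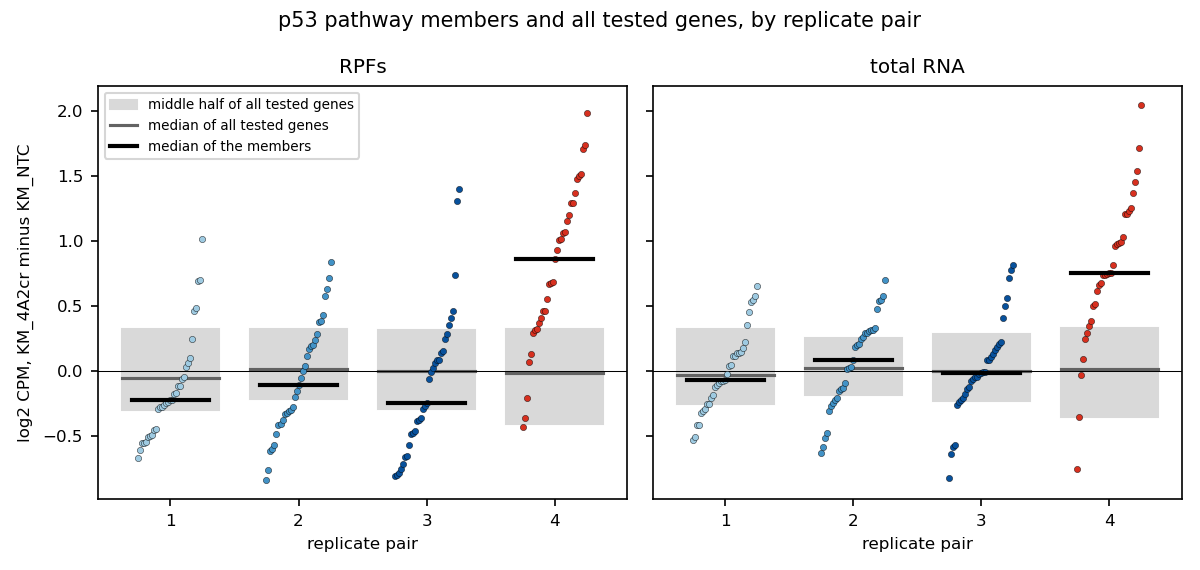
Log2 difference in CPM between KM_4A2cr and KM_NTC (y axis) in each replicate pair (x axis) for RPFs (left) and total RNA (right). Points are the 33 tested members, black bars their median, and grey boxes and bars the interquartile range and median of all tested genes; the median of the members stands at 0.86 in RPF pair 4 and at 0.75 in total RNA pair 4, and within the grey box in the other pairs.

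The members were then sorted into those higher in KM_4A2cr in pair 4 only and those higher in every pair. In RPFs, 11 of 33 members were higher in pair 4 and not above 0 in pairs 1 to 3 (12.4% of all tested genes had this pattern): *Mdm2*, *Rchy1*, *Ccng1*, *Btg2*, *Plk2*, *Plk3*, *Psrc1*, *Phlda3*, *Ercc5*, *Sesn1* and *Dcxr*. Total RNA showed it for 10 of 33 (12.2% of all genes): *Trp53*, *Mdm2*, *Ppm1d*, *Btg2*, *Gadd45a*, *Plk2*, *Plk3*, *Psrc1*, *Bax* and *Bbc3*. The pattern held in both kinds of library for 5 members, *Btg2*, *Mdm2*, *Plk2*, *Plk3* and *Psrc1*. Both kinds came from the same lysates and are not separate experiments, and the share of all genes with it in both kinds was not worked out. For members with this pattern, the sorting fixed in advance that a refit without replicate 4 would lean lower. The mirror image of the pattern, lower in pair 4 only, was found for 0 members in RPFs and for *Ddb2* alone in total RNA, against 13.0% and 13.6% of all genes. This sorting went by sign alone, so values near 0 could decide it. By a counting interval above a ratio of 1 instead, 19 members were higher only in RPF pair 4 (10.8% of all genes). In total RNA 15 were (14.5%).

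Higher in all 4 RPF pairs were 7 of 33 members (*Ccng2*, *Bax*, *Tnfrsf10b*, *Eda2r*, *Perp*, *Ei24* and *Xpc*), or 21.2%, with a background of 14.1%. In total RNA 7 of 33 were (*Ccng2*, *Pmaip1*, *Tnfrsf10b*, *Eda2r*, *Aen*, *Perp* and *Ei24*), with a background of 12.4%. The 5 that did so in both kinds were *Ccng2*, *Eda2r*, *Ei24*, *Perp* and *Tnfrsf10b*, and the share of all genes that did was not worked out. *Trp53* and *Tigar* were lower in all 4 RPF pairs, where 16.0% of all genes were, and 0 members were lower in all 4 total RNA pairs (13.0%). These counts depended on the scaling: with library size alone, which shifted the median of all genes to -0.14 in RPFs and to -0.15 in total RNA, 4 and 2 members stayed above 0 in all pairs, against 8.71% and 5.40% of all genes. Asking for a counting interval above a ratio of 1 in every pair left 4 in RPFs and 3 in total RNA, against 4.31% and 3.35% of all genes.

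In pairs 1 to 3 taken alone, more members were lower than higher in RPFs. There 13 of 33 members (39.4%) were lower in KM_4A2cr in each of the 3 pairs and 7 (21.2%) higher, against 28.4% and 27.1% of all genes. Total RNA had 10 of 33 lower and 8 higher, against 25.2% and 26.1%. In pair 4, by contrast, 15 of 33 members were more than 1 log2 unit higher in RPFs and 10 of 33 in total RNA, where 3.22% and 2.50% of all genes were.

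**Figure D2:**
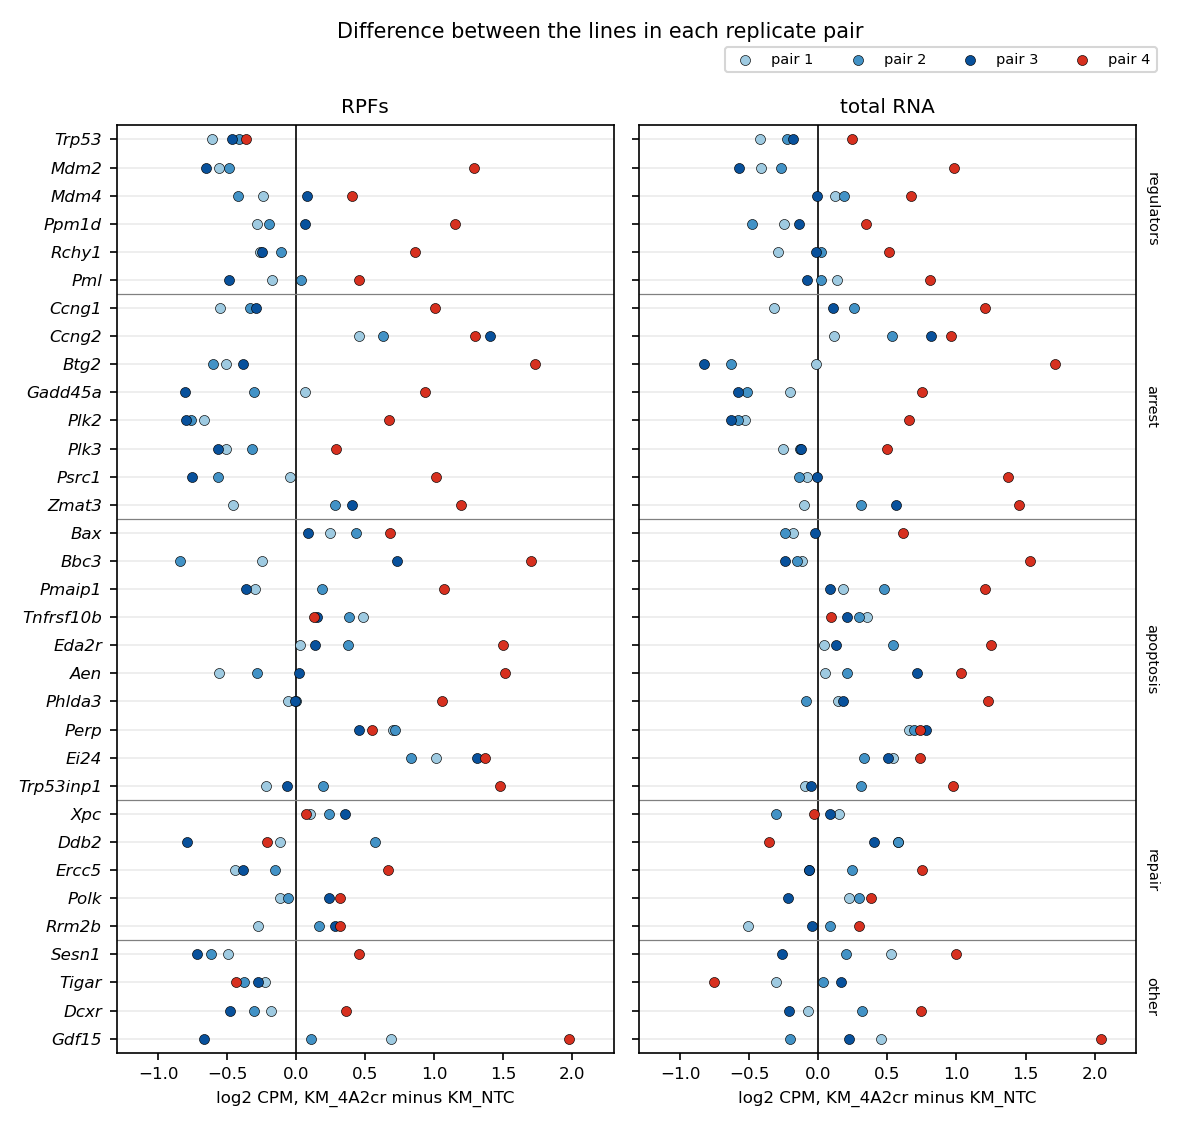
Log2 difference in CPM (x axis, KM_4A2cr minus KM_NTC, prior count 2) for each tested member (y axis, grouped by role) in RPFs (left) and total RNA (right), with 1 point for each replicate pair. Red points, pair 4, lie right of 0 for 30 of 33 members in either panel, while *Ccng2*, *Perp* and *Ei24* have all 4 points right of 0 in both.

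Among the regulators, *Trp53* (ENSMUSG00000059552.14), the gene of p53 itself, had RPFs of 127, 104, 86.3 and 38.8 CPM in KM_NTC and 83.0, 78.1, 62.4 and 30.2 CPM in KM_4A2cr (replicates 1 to 4, here and in the lists of 4 values that follow). Replicate 4 was the lowest in both lines, and KM_4A2cr was the lower line in every pair, although the ranges overlapped. Differences were -0.61, -0.41, -0.47 and -0.36 in pairs 1 to 4, and *Trp53* passed the test in RPFs (log2 fold change -0.47 ± 0.12 SE, with edgeR adjusted p = 0.065). Total RNA of *Trp53* was 95.2, 77.1, 66.4 and 31.0 CPM in KM_NTC and 71.1, 65.9, 58.5 and 36.9 CPM in KM_4A2cr, lower in pairs 1 to 3 and higher in pair 4, with differences of -0.42, -0.22, -0.18 and 0.25 and no call (log2 fold change -0.16 ± 0.14 SE, with edgeR adjusted p = 0.588). Its translational efficiency, the change in RPFs beyond that in total RNA, differed by -0.28 ± 0.11 SE (edgeR adjusted p = 0.208). The RPF call was lost when a replicate other than 4 was left out, with adjusted p of 0.215 without replicate 1, 0.339 without replicate 2 and 0.314 without replicate 3 by edgeR, and without replicate 4 *Trp53* stood at -0.50 (adjusted p = 0.00357 by edgeR).

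*Mdm2* (ENSMUSG00000020184.16), the ligase that degrades p53 and at the same time a p53 target, differed in opposite directions in pairs 1 to 3 and in pair 4. RPFs of *Mdm2* were 173, 156, 164 and 133 CPM in KM_NTC and 117, 111, 104 and 327 CPM in KM_4A2cr. Replicates 1 to 3 of KM_4A2cr lay below every KM_NTC library and replicate 4 lay above all of them. Total RNA of *Mdm2* was 298, 285, 304 and 284 CPM in KM_NTC and 224, 236, 204 and 561 CPM in KM_4A2cr, with the same arrangement. Its pair differences were -0.56, -0.49, -0.65 and 1.29 in RPFs and -0.41, -0.27, -0.57 and 0.98 in total RNA. With all replicates it did not pass the test in RPFs (log2 fold change -0.13 ± 0.30 SE, with edgeR adjusted p = 0.831) or in total RNA (log2 fold change -0.078 ± 0.23 SE, with edgeR adjusted p = 0.9), and without replicate 4 it was lower at -0.57 (adjusted p = 0.00124 by edgeR) in RPFs and -0.43 (adjusted p = 0.00197 by edgeR) in total RNA.

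*Rchy1*, another ligase of p53, had RPFs of 27.5, 28.2, 27.5 and 26.9 CPM in KM_NTC and 22.9, 26.1, 23.1 and 49.0 CPM in KM_4A2cr. As for *Mdm2*, replicates 1 to 3 of KM_4A2cr lay below every KM_NTC library and replicate 4 above them. Total RNA of *Rchy1* was 39.4, 36.6, 41.5 and 31.6 CPM in KM_NTC and 32.1, 37.2, 41.1 and 45.2 CPM in KM_4A2cr, overlapping between the lines, with differences of -0.30, 0.021, -0.015 and 0.51. *Ppm1d*, a phosphatase that switches off p53 signalling, had RPFs of 16.2, 10.6, 6.71 and 8.81 CPM in KM_NTC and 13.3, 9.23, 7.01 and 19.9 CPM in KM_4A2cr and total RNA of 13.9, 8.99, 6.49 and 9.39 CPM in KM_NTC and 11.6, 6.36, 5.87 and 12.0 CPM in KM_4A2cr. The lines overlapped in both kinds, and differences were -0.28, -0.20, 0.061 and 1.15 in RPFs and -0.25, -0.48, -0.14 and 0.34 in total RNA. *Mdm4*, which binds p53 and blocks its activity, and *Pml*, the scaffold of nuclear bodies that recruit p53, differed by -0.42 to 0.080 and -0.48 to 0.038 in RPF pairs 1 to 3 and by 0.41 and 0.46 in pair 4. In total RNA all 6 regulators were higher in pair 4, with a median of 0.59, where 51.1% of all genes were. In pairs 1 to 3 it was 2, 3 and 0 of 6, against 46.7%, 52.8% and 50.4% of all genes. The pair 4 counting intervals of *Trp53* (-0.076 to 0.57) and *Ppm1d* (-0.24 to 0.95) spanned 0, and those of the other regulators lay above it.

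Of the 8 targets in cell cycle and growth arrest, all were higher in pair 4 in both kinds of library, with medians of 1.01 in RPFs and 1.08 in total RNA. In each of RPF pairs 1 to 3, 2 of 8 were higher, with medians between -0.48 and -0.33. *Btg2* (ENSMUSG00000020423.7), an antiproliferative adaptor of deadenylases, had the largest pair 4 difference of the 8 in both kinds. RPFs of *Btg2* were 21.5, 8.54, 7.94 and 17.6 CPM in KM_NTC and 15.0, 5.54, 6.03 and 59.2 CPM in KM_4A2cr, and total RNA was 54.4, 24.5, 28.1 and 43.1 CPM in KM_NTC and 53.6, 15.7, 15.7 and 142 CPM in KM_4A2cr. Replicate 4 of KM_4A2cr was the highest library in both kinds, and in replicates 1 to 3 KM_4A2cr was the lower of each pair. Differences were -0.51, -0.60, -0.38 and 1.73 in RPFs and -0.021, -0.63, -0.83 and 1.71 in total RNA, and without replicate 4 *Btg2* was lower at -0.52 (adjusted p = 0.0351 by edgeR) and -0.45 (adjusted p = 0.024 by edgeR).

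*Plk2* (ENSMUSG00000021701.9) and *Plk3* encode polo-like kinases that p53 induces under stress. RPFs of *Plk2* were 191, 335, 246 and 267 CPM in KM_NTC and 119.9, 197, 141 and 427 CPM in KM_4A2cr. Total RNA of *Plk2* was 182, 267, 229 and 273 CPM in KM_NTC and 126, 178, 147 and 431 CPM in KM_4A2cr, with replicates 1 to 3 of KM_4A2cr below every KM_NTC library and replicate 4 above them. Of the 5 members higher only in pair 4 in both kinds, *Plk2* had the lowest values without replicate 4, at -0.74 (adjusted p = 0.000212 by edgeR) in RPFs and -0.59 (adjusted p = 7.07e-05 by edgeR) in total RNA. The sorting had fixed the direction of these refits. In them 33.4% and 29.8% of all genes passed, against 10.3% and 6.13% with all replicates. *Plk2* did not pass with all replicates (log2 fold change -0.40 ± 0.24 SE, with edgeR adjusted p = 0.351 in RPFs). *Plk3* had RPFs of 13.1, 31.6, 30.7 and 47.0 CPM in KM_NTC and 9.18, 25.2, 20.6 and 57.6 CPM in KM_4A2cr and total RNA of 12.3, 21.5, 22.6 and 37.6 CPM in KM_NTC and 10.3, 19.6, 20.6 and 53.2 CPM in KM_4A2cr. The lines overlapped in both, with pair differences of -0.50, -0.32, -0.57 and 0.29 in RPFs and -0.25, -0.13, -0.13 and 0.50 in total RNA, and RPFs were lower without replicate 4 at -0.46 (adjusted p = 0.0244 by edgeR).

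*Psrc1*, a spindle protein, had RPFs of 6.61, 11.6, 8.22 and 17.2 CPM in KM_NTC and 6.40, 7.75, 4.77 and 35.01 CPM in KM_4A2cr and total RNA of 17.8, 17.7, 10.7 and 31.6 CPM in KM_NTC and 16.8, 16.0, 10.6 and 82.3 CPM in KM_4A2cr. Replicate 4 was the highest of each line in both kinds, and its level was higher in KM_4A2cr than in KM_NTC, with pair 4 differences of 1.01 and 1.37 against -0.75 to -0.044 and -0.14 to -0.010 in the other pairs. *Gadd45a*, a stress sensor that restrains CDK1, had RPFs of 6.70, 9.93, 7.81 and 27.3 CPM in KM_NTC and 7.00, 8.00, 4.35 and 52.2 CPM in KM_4A2cr and total RNA of 13.5, 17.6, 14.3 and 36.6 CPM in KM_NTC and 11.6, 12.2, 9.47 and 61.8 CPM in KM_4A2cr. Replicate 4 again stood above the other 3 in both lines, and total RNA was lower in KM_4A2cr without it, at -0.46 (adjusted p = 0.0348 by edgeR). *Zmat3*, an RNA-binding target of p53, differed by -0.45, 0.28, 0.40 and 1.196 in RPFs and -0.11, 0.31, 0.56 and 1.45 in total RNA, higher in pairs 2 to 4 and lower in pair 1.

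The G-type cyclins differed in pattern. *Ccng1* (ENSMUSG00000020326.8), cyclin G1, is a direct p53 target that assists MDM2, and carries the element with 1 mismatch shown above. RPFs of *Ccng1* were 122, 80.1, 69.2 and 73.0 CPM in KM_NTC and 83.1, 63.5, 56.4 and 147 CPM in KM_4A2cr. Total RNA of *Ccng1* was 1163, 746, 831 and 690.2 CPM in KM_NTC and 930.0, 892, 895 and 1592 CPM in KM_4A2cr. Both overlapped between the lines, with replicate 4 of KM_4A2cr the highest library of each kind. RPFs were lower in pairs 1 to 3, with differences of -0.55, -0.33, -0.29 and 1.00, while total RNA differed by -0.32, 0.26, 0.11 and 1.205, so that its translational efficiency was lower in KM_4A2cr, in 4 of 4 pairs, at -0.35 ± 0.10 SE (edgeR adjusted p = 0.09). That call rested on every replicate from 1 to 3, with adjusted p of 0.352 without replicate 1, 0.429 without replicate 2 and 0.355 without replicate 3 by edgeR. *Ccng2* (ENSMUSG00000029385.15), cyclin G2, an inhibitor of proliferation, rose in every pair of both kinds. RPFs of *Ccng2* were 44.7, 24.9, 31.9 and 53.7 CPM in KM_NTC and 61.5, 38.7, 84.7 and 132 CPM in KM_4A2cr, or means of 38.8 ± 12.9 and 79.2 ± 39.8 CPM (SD, n = 4). Total RNA of *Ccng2* was 101, 71.0, 90.9 and 137 CPM in KM_NTC and 109.6, 103, 160.0 and 267 CPM in KM_4A2cr. The ranges overlapped, but each pair was higher in KM_4A2cr, by 0.46, 0.63, 1.40 and 1.29 in RPFs (log2 fold change 0.95 ± 0.18 SE, with edgeR adjusted p = 0.0243) and by 0.11, 0.54, 0.81 and 0.96 in total RNA (log2 fold change 0.61 ± 0.15 SE, with edgeR adjusted p = 0.0633). Adjusted p by edgeR in RPFs became 0.219 without replicate 3, and in total RNA 0.27 without replicate 2 and 0.422 without replicate 3.

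**Figure D3:**
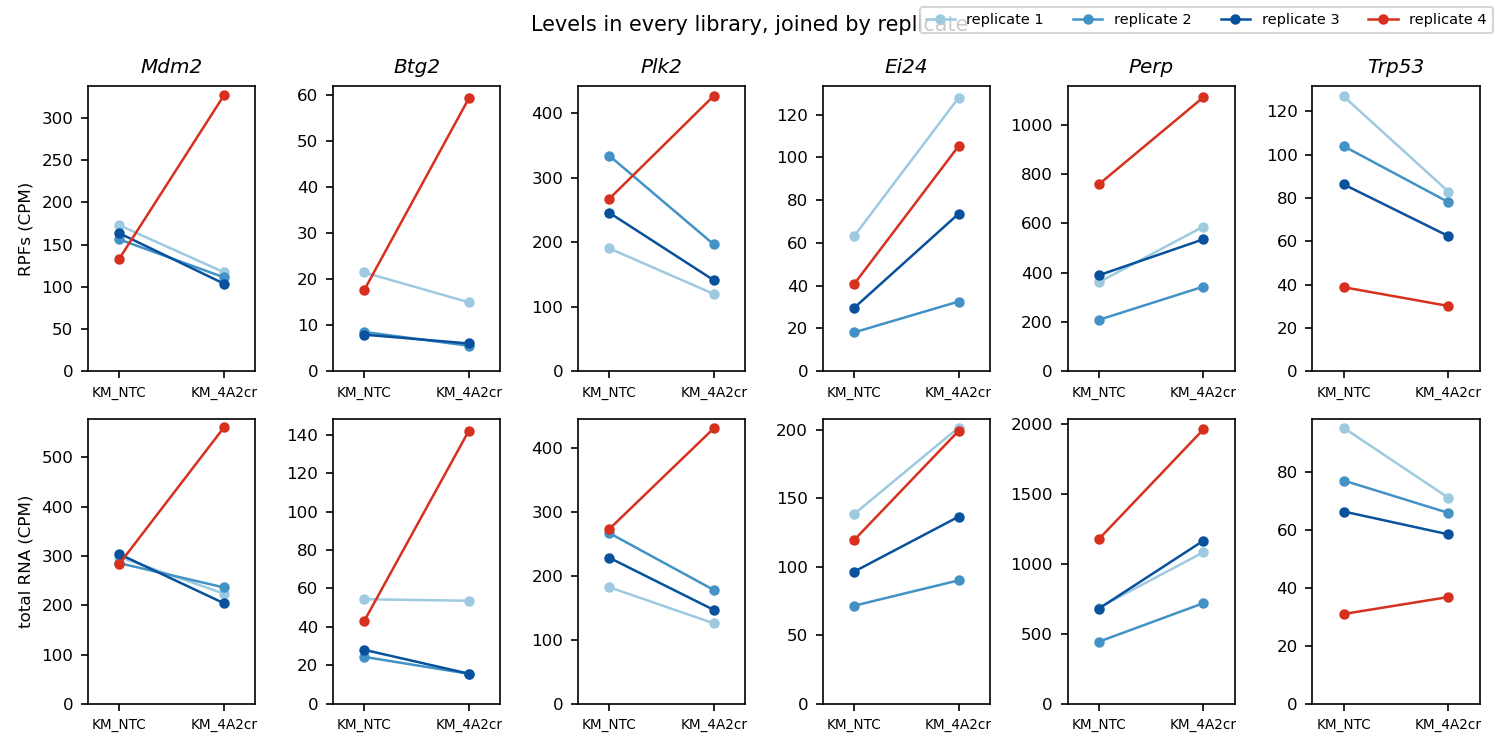
RPF (upper row) and total RNA (lower row) levels in CPM (y axis) of 6 members in KM_NTC and KM_4A2cr (x axis), with the libraries of a replicate joined by a line. *Mdm2*, *Btg2* and *Plk2* are lower in KM_4A2cr on the blue lines of replicates 1 to 3 and higher on the red line of replicate 4, *Ei24* and *Perp* are higher on all 4 lines, and *Trp53* is lower on all 4 in RPFs.

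Targets in apoptosis and death receptor signalling held *Bax*, *Pmaip1*, *Tnfrsf10b*, *Eda2r*, *Aen*, *Perp* and *Ei24*, or 7 of the 9 members higher in all 4 pairs of either kind. The group held 10 of the 33 tested members, and the share of all genes higher in all 4 pairs of either kind was not worked out. All 10 tested targets of this group were higher in pair 4, with medians of 1.22 in RPFs and 1.01 in total RNA, and between 5 and 7 of 10 in each of the other pairs. *Ei24* (ENSMUSG00000062762.18), an endoplasmic reticulum protein linked to autophagy and to p53-dependent death, had the smallest adjusted p of the members in RPFs. RPFs of *Ei24* were 63.1, 18.2, 29.6 and 40.7 CPM in KM_NTC and 128, 32.6, 73.7 and 105 CPM in KM_4A2cr. Total RNA of *Ei24* was 139, 71.7, 96.5 and 119.6 CPM in KM_NTC and 202, 90.2, 137 and 199 CPM in KM_4A2cr. Within each replicate KM_4A2cr was the higher line in both kinds, although replicate 2 of KM_4A2cr lay below replicate 1 of KM_NTC. Differences were 1.02, 0.83, 1.31 and 1.37 in RPFs (log2 fold change 1.14 ± 0.14 SE, with edgeR adjusted p = 0.00505) and 0.54, 0.33, 0.50 and 0.74 in total RNA (log2 fold change 0.53 ± 0.12 SE, with edgeR adjusted p = 0.0499). RPFs rose beyond the RNA, so that translational efficiency was higher by 0.60 ± 0.10 SE (edgeR adjusted p = 0.00483), and this call held with each replicate left out in turn. In RPFs adjusted p by edgeR was 0.11 without replicate 3, and in total RNA it was 0.169 without replicate 1, 0.222 without replicate 2 and 0.353 without replicate 3.

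*Perp* (ENSMUSG00000019851.9) behaved alike in RPFs and RNA. RPFs of *Perp* were 361, 209, 389 and 758 CPM in KM_NTC and 587, 343, 535 and 1111 CPM in KM_4A2cr. Total RNA of *Perp* was 688, 444, 681 and 1177 CPM in KM_NTC and 1083, 719, 1166 and 1961 CPM in KM_4A2cr. Replicate 4 was the highest of each line, and each pair was higher in KM_4A2cr, by 0.70, 0.72, 0.46 and 0.55 in RPFs (log2 fold change 0.61 ± 0.12 SE, with edgeR adjusted p = 0.0272) and 0.65, 0.70, 0.78 and 0.74 in total RNA (log2 fold change 0.72 ± 0.15 SE, with edgeR adjusted p = 0.0372), with a translational efficiency difference of -0.11 ± 0.095 SE (edgeR adjusted p = 0.66). The calls were lost when a replicate other than 4 was left out, at adjusted p by edgeR of 0.123 without replicate 1, 0.248 without replicate 2 and 0.199 without replicate 3 in RPFs and 0.138 without replicate 1, 0.304 without replicate 2 and 0.367 without replicate 3 in total RNA.

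*Tnfrsf10b* (ENSMUSG00000022074.7), the mouse death receptor for TRAIL, had RPFs of 441, 359, 611 and 982 CPM in KM_NTC and 617, 469.9, 678 and 1073 CPM in KM_4A2cr and total RNA of 345, 279, 420.1 and 679 CPM in KM_NTC and 441, 342, 484 and 725 CPM in KM_4A2cr. KM_4A2cr was higher in each pair and the ranges overlapped. Its smallest differences were in pair 4, with differences of 0.48, 0.39, 0.15 and 0.13 in RPFs and 0.35, 0.29, 0.21 and 0.094 in total RNA, and it did not pass the test with all replicates but did without replicate 4, at 0.34 (adjusted p = 0.0316 by edgeR) and 0.28 (adjusted p = 0.0301 by edgeR). *Eda2r* (ENSMUSG00000034457.11), the X-linked receptor for ectodysplasin A2, had RPFs of 44.0, 19.5, 29.6 and 40.3 CPM in KM_NTC and 44.9, 25.3, 32.5 and 114 CPM in KM_4A2cr and total RNA of 87.7, 55.4, 79.9 and 102 CPM in KM_NTC and 89.9, 80.8, 87.5 and 242 CPM in KM_4A2cr. Each pair was higher in KM_4A2cr, by 0.030, 0.38, 0.14 and 1.50 in RPFs and 0.037, 0.54, 0.13 and 1.25 in total RNA, most of it in pair 4, and neither kind passed the test (adjusted p = 0.225 and 0.199 by edgeR).

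*Bax* (ENSMUSG00000003873.12), the pore-forming effector of mitochondrial apoptosis, differed between the kinds of library. RPFs of *Bax* were 82.7, 66.0, 89.7 and 61.7 CPM in KM_NTC and 98.2, 89.2, 95.3 and 99.1 CPM in KM_4A2cr, higher in each pair and almost without overlap between the lines. Total RNA of *Bax* was 47.4, 30.0, 33.9 and 35.6 CPM in KM_NTC and 41.7, 25.3, 33.3 and 54.6 CPM in KM_4A2cr, lower in pairs 1 to 3 and higher in pair 4. Differences were 0.25, 0.43, 0.086 and 0.68 in RPFs and -0.18, -0.24, -0.026 and 0.61 in total RNA, and the difference in translational efficiency, 0.34 ± 0.12 SE (edgeR adjusted p = 0.159), did not pass the test with all replicates but did without replicate 4, at 0.44 (edgeR adjusted p = 0.0238). *Bbc3*, the BH3-only protein PUMA, was scarce, with 42 RPF counts over the 4 KM_NTC libraries. RPFs of *Bbc3* were 1.63, 1.09, 0.822 and 1.47 CPM in KM_NTC and 1.33, 0.492, 1.54 and 5.39 CPM in KM_4A2cr and total RNA was 3.23, 1.17, 0.947 and 3.07 CPM in KM_NTC and 2.94, 1.02, 0.757 and 9.45 CPM in KM_4A2cr, with replicate 4 of KM_4A2cr the highest library in both and pair 4 differences of 1.70 and 1.54.

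*Phlda3*, a repressor of AKT that competes for membrane lipids, had nearly level RPFs in all but 1 library. RPFs of *Phlda3* were 24.4, 24.4, 23.97 and 26.01 CPM in KM_NTC and 23.4, 24.4, 23.8 and 54.4 CPM in KM_4A2cr, with 7 of 8 libraries between 23.4 and 26.01 CPM and replicate 4 of KM_4A2cr far above. Total RNA of *Phlda3* was 28.3, 26.2, 20.0 and 14.4 CPM in KM_NTC and 31.2, 24.6, 22.7 and 34.1 CPM in KM_4A2cr, with differences of 0.14, -0.091, 0.18 and 1.23. *Pmaip1*, the BH3-only protein NOXA, *Aen*, an exonuclease of apoptotic DNA, and *Trp53inp1*, a cofactor of p53 in death, were higher in RPF pair 4 by 1.07, 1.52 and 1.48. Their ranges in RPF pairs 1 to 3 were -0.36 to 0.19, -0.56 to 0.020 and -0.22 to 0.20. *Aen* total RNA was higher in all 4 pairs and passed without replicate 4, at 0.30 (adjusted p = 0.097 by edgeR). *Fas*, the death receptor, had 9 RPF counts over the 4 KM_NTC libraries and 14 over the KM_4A2cr libraries.

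Repair targets had the smallest pair 4 medians of the 5 role groups. In pair 4, 4 of 5 were higher in RPFs with a median of 0.32, and 3 of 5 in total RNA with a median of 0.29. *Ercc5*, the XPG endonuclease of nucleotide excision repair, had RPFs of 43.4, 40.4, 31.5 and 94.4 CPM in KM_NTC and 31.8, 36.3, 24.1 and 150.3 CPM in KM_4A2cr. Total RNA of *Ercc5* was 36.0, 28.5, 26.4 and 63.2 CPM in KM_NTC and 34.3, 33.8, 25.2 and 107 CPM in KM_4A2cr. Replicate 4 was the highest of each line in both kinds, with pair differences of -0.45, -0.15, -0.38 and 0.67 in RPFs and -0.069, 0.25, -0.066 and 0.75 in total RNA, and RPFs were lower without it at -0.33 (adjusted p = 0.0692 by edgeR). *Xpc* and *Ddb2*, which recognise damage in the same pathway, differed by 0.098, 0.24, 0.36 and 0.069 and -0.12, 0.58, -0.79 and -0.21 in RPFs. *Ddb2* total RNA differed by 0.58, 0.58, 0.41 and -0.36, lower in pair 4 only. It lies on chromosome 2, whose genes had a median log2 fold change of -0.17 in total RNA and -0.21 in RPFs, and the part of that shift in *Ddb2* was not tested. *Polk*, a translesion polymerase, and *Rrm2b*, the p53-inducible subunit of ribonucleotide reductase, differed by -0.12 to 0.24 and -0.27 to 0.28 in RPF pairs 1 to 3 and by 0.32 and 0.32 in pair 4.

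The remaining targets act in metabolism or outside the cell. *Sesn1*, a stress-induced inhibitor of mTORC1, had RPFs of 4.71, 4.86, 1.78 and 4.83 CPM in KM_NTC and 3.26, 3.08, 0.982 and 6.73 CPM in KM_4A2cr and total RNA of 3.09, 3.96, 3.25 and 4.60 CPM in KM_NTC and 4.58, 4.58, 2.65 and 9.45 CPM in KM_4A2cr. It was scarce, lower in RPF pairs 1 to 3 and higher in pair 4 at -0.50, -0.62, -0.71 and 0.46, while total RNA differed by 0.53, 0.20, -0.27 and 0.99. *Dcxr*, a xylulose reductase, had RPFs of 21.4, 24.1, 20.8 and 44.1 CPM in KM_NTC and 18.8, 19.4, 14.9 and 56.8 CPM in KM_4A2cr and total RNA of 8.13, 5.58, 6.63 and 9.77 CPM in KM_NTC and 7.69, 7.00, 5.68 and 16.6 CPM in KM_4A2cr. Replicate 4 was the highest of each line, and RPFs differed by -0.18, -0.31, -0.48 and 0.36. *Tigar*, a phosphatase that diverts glucose from glycolysis, was lower in each RPF pair, with differences of -0.23, -0.38, -0.27 and -0.43, and differed by -0.31, 0.030, 0.16 and -0.75 in total RNA. *Gdf15*, a secreted stress cytokine, had the largest pair 4 difference of the members, 1.98 in RPFs and 2.05 in total RNA, against -0.67 to 0.69 and -0.21 to 0.45 in pairs 1 to 3. *Cd80*, a co-stimulatory ligand, had 1 and 4 RPF counts over the libraries of KM_NTC and KM_4A2cr.

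Across all replicates, the quasi-likelihood test of edgeR, blocked by replicate (Benjamini-Hochberg over all genes, threshold 0.1) called few members. In RPFs 3 of 33 passed as higher (*Ccng2*, *Perp* and *Ei24*), against 6.60% of all genes, and 1 as lower (*Trp53*), against 3.72%. Total RNA gave the same 3 as higher, against 4.35%, and 0 as lower, against 1.78%, and DESeq2 gave 3 higher and 0 lower as well. By edgeR an unadjusted p under 0.05 in either direction was found for 7 of 33 members in RPFs, against 23.4% of all genes, and for 8 of 33 in total RNA, against 18.3%. In translational efficiency *Ei24* was higher (1.87% of all genes) and *Ccng1* lower (1.00%). The 3 higher members are 9.09% of those tested in either kind. Without the replicate block 0 members passed in any of the 3 tests, as did 0.0% of all genes.

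Leaving out replicate 4 changed which members passed. In RPFs 5 of 33 were then higher (*Ccng2*, *Bax*, *Tnfrsf10b*, *Perp* and *Ei24*) and 8 lower (*Trp53*, *Mdm2*, *Ccng1*, *Btg2*, *Plk2*, *Plk3*, *Ercc5* and *Sesn1*). The background rose as well, to 19.1% higher and 14.3% lower. For members sorted as higher only in pair 4, that sorting had fixed the lower direction. In total RNA 6 of 32 were higher (*Ccng2*, *Tnfrsf10b*, *Aen*, *Perp*, *Ei24* and *Ddb2*) and 5 lower (*Trp53*, *Mdm2*, *Btg2*, *Gadd45a* and *Plk2*), against 17.8% and 12.0%. The median fitted change of the members was 0.090 with and -0.17 without replicate 4 in RPFs, and 0.24 with and 0.031 without it in total RNA, while that of all genes stayed between -0.021 and 0.0099. Leaving out replicate 1, 2 or 3 instead left 2, 2 and 0 members in RPFs, where 2.27%, 1.2% and 0.31% of all genes passed, and 1, 0 and 0 in total RNA, where 1.91%, 1.3% and 0.577% did. In translational efficiency without replicate 4, 3 of 32 members were higher (*Ccng2*, *Bax* and *Ei24*) and 2 lower (*Ccng1* and *Aen*), against 5.04% and 2.90% of all genes.

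**Figure D4:**
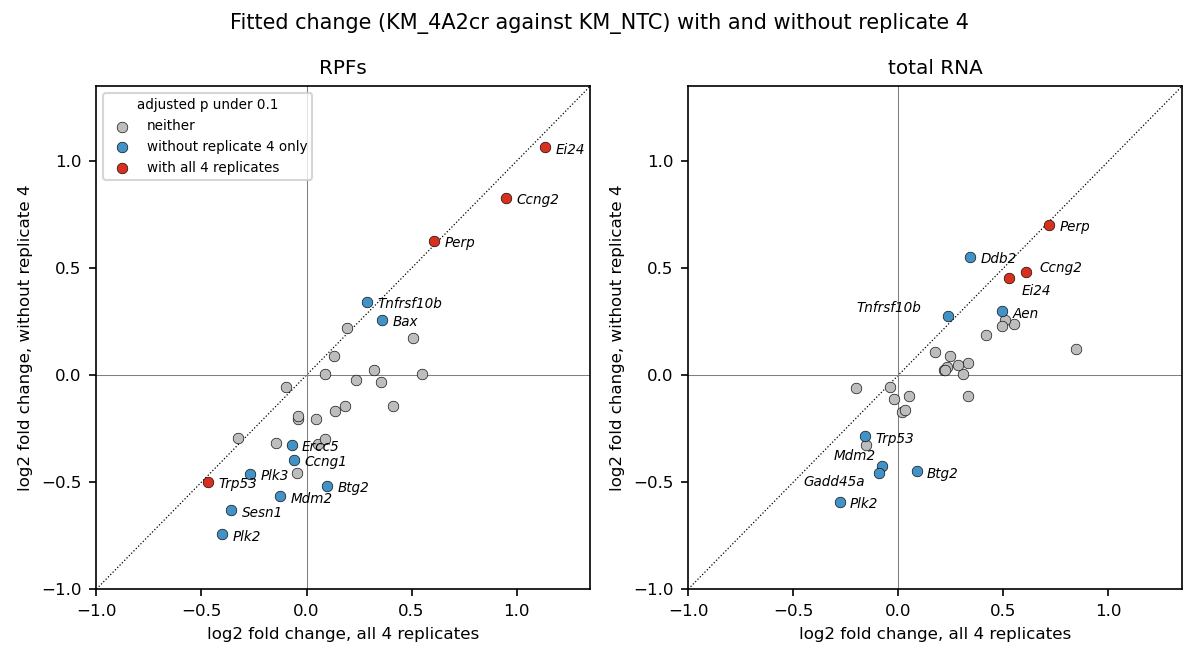
Fitted log2 fold change (KM_4A2cr against KM_NTC) of each member with all 4 replicates (x axis) and without replicate 4 (y axis) in RPFs (left) and total RNA (right), with the dotted line marking equal values. Most points lie below the line, while *Perp*, *Tnfrsf10b* and *Trp53* in RPFs lie near it. The member medians in RPFs were 0.090 with and -0.17 without replicate 4.

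High levels in replicate 4 were not confined to KM_4A2cr. In RPFs replicate 4 of KM_4A2cr stood above its other 3 replicates, and replicate 4 of KM_NTC did not, for 12 of 33 members, among them *Mdm2*, *Ccng1*, *Btg2*, *Plk2*, *Bax* and *Aen*, against 12.4% of all genes. For another 15 of 33, among them *Gadd45a*, *Psrc1*, *Ercc5*, *Pmaip1* and *Gdf15*, replicate 4 was the highest in both lines, against 22.0%. Total RNA gave 12 of 33 and 17 of 33, against 13.0% and 23.3%. *Gdf15* shows the second kind. RPFs of *Gdf15* were 10.7, 27.9, 42.9 and 119 CPM in KM_NTC and 17.4, 30.1, 26.9 and 472 CPM in KM_4A2cr, so that replicate 4 was high in KM_NTC and higher still in KM_4A2cr. The labels give replicate 4 no other treatment, and what set that experiment apart was not tested.

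Other genes of the pathway were taken from lists of 20 kinases, ligases and cofactors acting on p53 and 20 further targets. Of the 17 tested cofactors, 1 passed in RPFs and 1 in total RNA, in both cases *Cdkn2a*, which encodes p16 and the MDM2 inhibitor ARF and fell by 1.08 in RPFs (adjusted p = 0.00603 by edgeR) and by 0.90 in total RNA (adjusted p = 0.0155 by edgeR). Of the further targets, 3 of 17 were higher and 1 lower in RPFs, and 3 of 18 higher and 1 lower in total RNA. Of all genes, as given above, 6.60% were higher and 3.72% lower in RPFs, and 4.35% and 1.78% in total RNA. *Slc19a2*, a thiamine transporter, rose in both kinds by 0.75 and 0.76, and *Bid*, which links death receptors to mitochondria, was lower in both, at -0.69 and -0.48. *Rap2b*, a small GTPase, and *Siah1a*, a ubiquitin ligase, rose in RPFs by 0.57 and 0.84, and *Notch1*, a receptor, rose in total RNA by 0.64. *Cdkn1a*, the CDK inhibitor p21 and the best known p53 target in arrest, rose in total RNA (log2 fold change 0.63 ± 0.17 SE, with edgeR adjusted p = 0.0794), with pair differences of 0.36, 0.31, 0.55 and 1.32. In RPFs *Cdkn1a* did not pass the test and differed by 0.14, 0.25, -0.14 and 1.44, positive in 3 of 4 pairs and largest in pair 4. *Triap1*, a small inhibitor of apoptosis, had a translational efficiency lower at -0.82 ± 0.23 SE (edgeR adjusted p = 0.09).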

How the data were processed

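The 16 libraries were 4 of RPFs and 4 of cytoplasmic total RNA per line. RPF counts were deposited by transcript as whole numbers, after trimming with Cutadapt 1.18, alignment to GENCODE vM27 coding transcripts and removal of duplicates with UMI-tools 1.0.1; coding sequences were counted without their ends. For total RNA the authors deposited RSEM 1.3.3 expected counts and TPM per isoform after Bowtie2 2.3.5.1, here summed per gene, and expected counts were rounded. Symbols came from gene IDs. A further allele shared by both lines is not reported here.

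Tests used edgeR 4.0.16 in R 4.3.3 (filterByExpr, TMM, quasi-likelihood) on 10291 RPF and 10880 total RNA genes, with line and replicate as terms, and the interaction of line and kind of library for translational efficiency (9989 genes). Adjusted p-values are Benjamini-Hochberg values over all genes, with a threshold of 0.1. Pair differences are log2 CPM with a prior count of 2 and carry no test. The edgeR tests with the replicate block, and DESeq2 for RPFs and total RNA, were tried on simulated counts. The simulation gave all replicates the same difference between the lines, so it does not cover a pair that differs from the others. Replicates were separate experiments, and same-numbered libraries of the lines were taken as pairs. Their deviations from the line means correlated, at 0.575 to 0.782 in RPFs and 0.611 to 0.756 in total RNA. Libraries of unlike number were not compared in this way, so the correlations cannot show that the pairing is right.

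Members and lists were chosen with earlier results of these data known, as was the mismatch limit for promoters. Full values are given for *Trp53*, *Mdm2*, called members, and members higher in all 4 pairs of both kinds or in pair 4 only in either. Depth leaves members with a few counts, such as *Bbc3*, imprecise. Alternatives were DESeq2 1.42.0, other scalings, filters, prior count and threshold, no replicate block, the RPF isoform only, and each replicate left out.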

Additional observations from a re-analysis of the deposited data

Results flagged for a closer look

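A library lay far from the other 3 of its line in 24 of the 132 groups of 4 libraries formed by the 33 tested members, 2 lines and 2 kinds by Dixon's ratio at the 95% level, and chance gives about 1 in 20 groups. By the same ratio 7.93% of such groups over all tested genes had a library apart, and in 5.03% it was replicate 4. In 22 of the 24 it was replicate 4, and in 19 the highest KM_4A2cr library. RPF levels of KM_4A2cr replicate 4 set apart in this way were 327 CPM for *Mdm2*, 22.3 CPM for *Mdm4*, 49.0 CPM for *Rchy1*, 52.2 CPM for *Gadd45a*, 35.01 CPM for *Psrc1* and 86.7 CPM for *Pmaip1*. They were also 54.4 CPM for *Phlda3*, 84.6 CPM for *Trp53inp1*, 150.3 CPM for *Ercc5*, 56.8 CPM for *Dcxr* and 472 CPM for *Gdf15*. Total RNA levels of KM_4A2cr replicate 4 set apart in this way were 561 CPM for *Mdm2*, 1592 CPM for *Ccng1*, 61.8 CPM for *Gadd45a*, 82.3 CPM for *Psrc1*, 205 CPM for *Zmat3* and 242 CPM for *Eda2r*. They were also 107 CPM for *Ercc5* and 79.3 CPM for *Gdf15*. In KM_NTC, replicate 4 stood out as the highest at 27.3 CPM for *Gadd45a* RPFs, 44.1 CPM for *Dcxr* RPFs and 19.0 CPM for *Gdf15* total RNA. Replicate 3 of KM_NTC stood out as the lowest in RPFs, at 28.4 CPM for *Pml* and 1.78 CPM for *Sesn1*. Both members called in translational efficiency were set apart because RPFs and total RNA changed unequally in 1 test of the interaction, by a log2 difference of -0.35 for *Ccng1* and of 0.60 for *Ei24* (adjusted p = 0.09 and 0.00483 by edgeR).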

How the results depend on the processing

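The test for the line needed the replicate block: without the block 0 members were called in RPFs, 0 in total RNA and 0 in translational efficiency, and the fitted differences changed sign for *Mdm2* (0.072 in RPFs, 0.064 in total RNA), *Ccng1* (0.020 in RPFs), *Ercc5* (0.20 in RPFs) and *Gadd45a* (0.21 in total RNA). With library size alone as the scaling, 1 member was called in total RNA (10.4% of all genes) and 1 in translational efficiency (1.33%), 4 members were higher in all 4 RPF pairs and 2 in all 4 total RNA pairs, and *Btg2* stood at -0.042 in RPFs and -0.069 in total RNA. Without the filter on low counts 8 members were called in total RNA (7.18% of all genes), and at a threshold of 0.05 there was 1 in translational efficiency (0.751%). Asking for a counting interval above a ratio of 1 left 4 members in all 4 RPF pairs and 3 in all 4 total RNA pairs, and gave 19 higher only in RPF pair 4 (10.8% of all genes).

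Leaving out each replicate in turn gave 0 to 13 calls in RPFs, 0 to 11 in total RNA and 1 to 5 in translational efficiency, while the share of all genes called ran from 0.31% to 33.4%, 0.577% to 29.8% and 0.151% to 7.94%. Over pairs left out in turn, a choice made after seeing the data, 7 to 9 members were higher in all remaining RPF pairs and 8 to 11 in all remaining total RNA pairs. The shares of all genes ran from 16.1% to 27.1% and from 15.0% to 26.1%. Without pair 4, 21.2% of members were higher in RPFs, against 27.1% of all genes, and 24.2% in total RNA, against 26.1%. The fitted change ranged from -0.57 to 0.091 for *Mdm2*, -0.40 to 0.12 for *Ccng1*, -0.52 to 0.36 for *Btg2* and -0.33 to 0.057 for *Ercc5* in RPFs, and from -0.43 to 0.092 for *Mdm2*, -0.45 to 0.36 for *Btg2* and -0.46 to 0.046 for *Gadd45a* in total RNA. Of 307 refits of 27 fold changes, 239 kept direction and side of the threshold, 31 lost the call, 16 gained it and 21 changed sign. In RPFs and total RNA the fold changes followed were those of members called without replicate 4. That refit gave 15 of the 16 gains, which the choice of members fixed in advance. DESeq2, RLE and upper-quartile scaling changed none of the 27, 10 counts in every library none of the 26 it could be run on, and the RPF isoform alone none of 11. Depth limits *Fas* and *Cd80*, which were not tested, and the cause of the changes with replicate 4 was not tested.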

Other observations

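*Cdkn1a* and *Cdkn2a*, arrest genes outside the list of members, differed in direction in total RNA, while *Cdkn1a* did not pass the test in RPFs. RPFs of *Cdkn1a* were 43.5, 73.3, 98.5 and 71.3 CPM in KM_NTC and 48.1, 87.3, 89.1 and 194 CPM in KM_4A2cr (replicates 1 to 4), and replicate 4 of KM_4A2cr was the highest library. Total RNA of *Cdkn1a* was 48.7, 71.7, 67.3 and 76.6 CPM in KM_NTC and 62.5, 89.1, 98.5 and 192 CPM in KM_4A2cr, higher in KM_4A2cr in each pair. *Cdkn2a*, by contrast, was lower in KM_4A2cr in each pair of both kinds. RPFs of *Cdkn2a* were 159, 126, 153 and 83.3 CPM in KM_NTC and 90.3, 61.6, 58.9 and 38.5 CPM in KM_4A2cr, and total RNA was 46.8, 41.2, 40.0 and 23.4 CPM in KM_NTC and 27.96, 19.6, 15.9 and 17.5 CPM in KM_4A2cr. Pair differences of *Cdkn2a* were -0.81, -1.03, -1.37 and -1.11 in RPFs and -0.74, -1.06, -1.32 and -0.41 in total RNA.

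*Fas* was too scarce for the test, and its counts are given as they stand. RPFs numbered 3, 0, 2 and 4 in KM_NTC and 0, 0, 0 and 14 in KM_4A2cr, and total RNA numbered 0, 1, 5 and 9 in KM_NTC and 2, 2, 1 and 21 in KM_4A2cr. Replicate 4 was the highest of each line in both kinds.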
